A study of Homo sapiens with 4 samples.

Results

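The genes described here are 38 genes of the mitotic spindle, its kinesin motors and the cytokinesis machinery, followed in HCT116 cells after silencing of CTNNB1. They were chosen by name, as genes with these functions, but with earlier results of these data known. Of the 38, 37 could be measured and tested, out of 15679 genes tested in all. The remaining one, CIT, which encodes citron kinase of the cytokinetic ring, lay on a transcript cluster annotated to several genes and was not analysed here. HCT116 is an established human colon cancer line, and its beta-catenin is known to be stabilised by a mutation in CTNNB1. Cells received a control siRNA or an siRNA against CTNNB1, the gene for beta-catenin, the transcriptional co-activator of Wnt signalling. Both siRNAs were used at 50 nM and cells were harvested at 48 h. Each group held 2 samples that the labels call biological replicates, with 1 Affymetrix whole-transcript array per sample and 4 arrays in all. The labels do not give the siRNA sequences or say whether a single siRNA or a pool was used.

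Kinesins are motor proteins that walk along microtubules or take them apart. A subset of them works only in dividing cells, where they push spindle poles apart, align chromosomes and bundle the microtubules left between the separating chromosomes, at which the cleavage furrow then forms. Most genes for this machinery are transcribed late in the cell cycle. The MuvB complex binds a short promoter element of these genes, the cell cycle genes homology region (CHR), and activates them together with B-MYB (the MYBL2 product) and FOXM1, while in resting cells a MuvB complex with p130 and E2F4, called DREAM, keeps them silent.

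The promoters of the members carried this element often. RefSeq promoter windows (GRCh38.p14), from 250 bases before to 50 bases after a gene start, were found for 33 of the 38 members, with 38 windows in all. AURKA, FOXM1, RACGAP1, TPX2 and UBE2C had no entry. The CHR was searched as TTTGAA or TTCGAA on both strands. It was present in 26 of the 38 member windows (68.4%), against 12.3% of the 15854 windows of tested genes and 16.4% of all 35116 windows. Within the last 60 bases before the start or the 50 bases after it, it was present in 60.5% of member windows and in 3.87% of windows of tested genes. CCAAT, the letters bound by NF-Y, which often neighbours the CHR, was present on either strand in 71.1% of member windows and 34.6% of windows of tested genes. Both letters together stood in 55.3% of member windows, against 4.91%. The median GC content was similar, 62.7% in member windows and 64.0% in those of tested genes. A match describes the letters and is not a measured binding site, and some genes have several overlapping windows.

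The 8 stretches printed here run from 120 bases before to 30 bases after the gene start, 5′ to 3′ on the gene's strand, with CHR letters in capitals. They were picked after the values were seen, to set members with large falls beside members of moderate and small change. KIF15 lies at chr3:44761674-44761823 (plus strand), HMMR at chr5:163460512-163460661 (plus), PRC1 at chr15:90994506-90994655 (minus), KIF23 at chr15:69414229-69414378 (plus), KIF22 at chr16:29790631-29790780 (plus), PLK1 at chr16:23678769-23678918 (plus), KIF2C at chr1:44739717-44739866 (plus) and HAUS1 at chr18:46104265-46104414 (plus). The coordinates are those of the RefSeq windows, and the build of the array's own clusters is not known here.
KIF15: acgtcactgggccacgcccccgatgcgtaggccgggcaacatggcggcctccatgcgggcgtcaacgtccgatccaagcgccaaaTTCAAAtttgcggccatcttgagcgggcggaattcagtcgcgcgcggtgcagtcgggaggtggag
HMMR: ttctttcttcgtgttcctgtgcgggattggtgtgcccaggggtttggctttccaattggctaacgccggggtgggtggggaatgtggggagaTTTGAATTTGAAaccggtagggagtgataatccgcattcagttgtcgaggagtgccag
PRC1: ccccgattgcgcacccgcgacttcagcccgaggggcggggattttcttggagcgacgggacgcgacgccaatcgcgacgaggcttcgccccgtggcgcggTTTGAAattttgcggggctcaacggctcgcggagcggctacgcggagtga
KIF23: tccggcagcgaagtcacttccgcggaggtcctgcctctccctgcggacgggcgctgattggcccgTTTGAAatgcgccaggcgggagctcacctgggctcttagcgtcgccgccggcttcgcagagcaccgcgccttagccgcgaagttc
KIF22: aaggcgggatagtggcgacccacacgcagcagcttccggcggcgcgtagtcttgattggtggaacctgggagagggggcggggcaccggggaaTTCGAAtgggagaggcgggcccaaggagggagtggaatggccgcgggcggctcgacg
PLK1: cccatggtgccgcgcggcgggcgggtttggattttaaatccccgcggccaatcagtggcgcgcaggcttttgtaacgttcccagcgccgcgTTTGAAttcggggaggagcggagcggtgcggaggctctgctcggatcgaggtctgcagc
KIF2C: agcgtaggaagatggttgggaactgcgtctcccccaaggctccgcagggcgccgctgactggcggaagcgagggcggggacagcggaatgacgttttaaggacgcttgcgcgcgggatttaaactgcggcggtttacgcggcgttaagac
HAUS1: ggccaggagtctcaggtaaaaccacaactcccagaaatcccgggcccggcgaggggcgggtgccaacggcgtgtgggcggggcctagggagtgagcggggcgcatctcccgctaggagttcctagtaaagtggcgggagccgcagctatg

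In HMMR a tandem pair of CHR letters began 28 bases before the start. PRC1 and PLK1 carried 1 copy each, beginning 20 and 29 bases before it, with CCAAT beginning 53 and 73 bases before it. In KIF15 the element stood on the opposite strand, so that the printed strand reads TTCAAA, and it directly followed an E2F-type match on the opposite strand. KIF22 was the member with the TTCGAA form. KIF2C and HAUS1 held neither form in their windows, and no other form of the element was searched.

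Expression of the whole group was lower after CTNNB1 siRNA. Of the 37 tested members, 33 fell at an adjusted p under 0.05 in limma, where 16.1% of all tested genes fell. None rose at that threshold, where 14.2% of all tested genes rose. At an unadjusted p under 0.05 in limma, 0 members and 2936 of all 15679 tested genes were higher. On both CTNNB1 siRNA arrays the level was below that on both control arrays for 37 of 37 members, which held for 34.2% of all tested genes. The median log2 fold change over the members was -0.87, which is 54.9% of the control level, beside a median of -0.02 over all tested genes. Falls of at least 2-fold were called for 12 members, a size reached by 2.83% of all tested genes. The changes of 20 members lay below the 5th percentile of all tested genes, at -0.79. The members differed among themselves, with changes from -0.14 to -1.88 and an SD of 0.42 against a median standard error (SE) of 0.11 per gene. The targeted gene itself fell by 3.56 on the log2 scale (SE 0.10, adjusted p 0.000134 in limma). Arrays measure the RNA of all cells together, so fewer cells in late cell cycle phases and less of these RNAs per cell cannot be told apart. Levels are the deposited log2 values, and the RMA variant that set their scale is not known here, so that folds hold on that scale only.

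**Figure D1:**
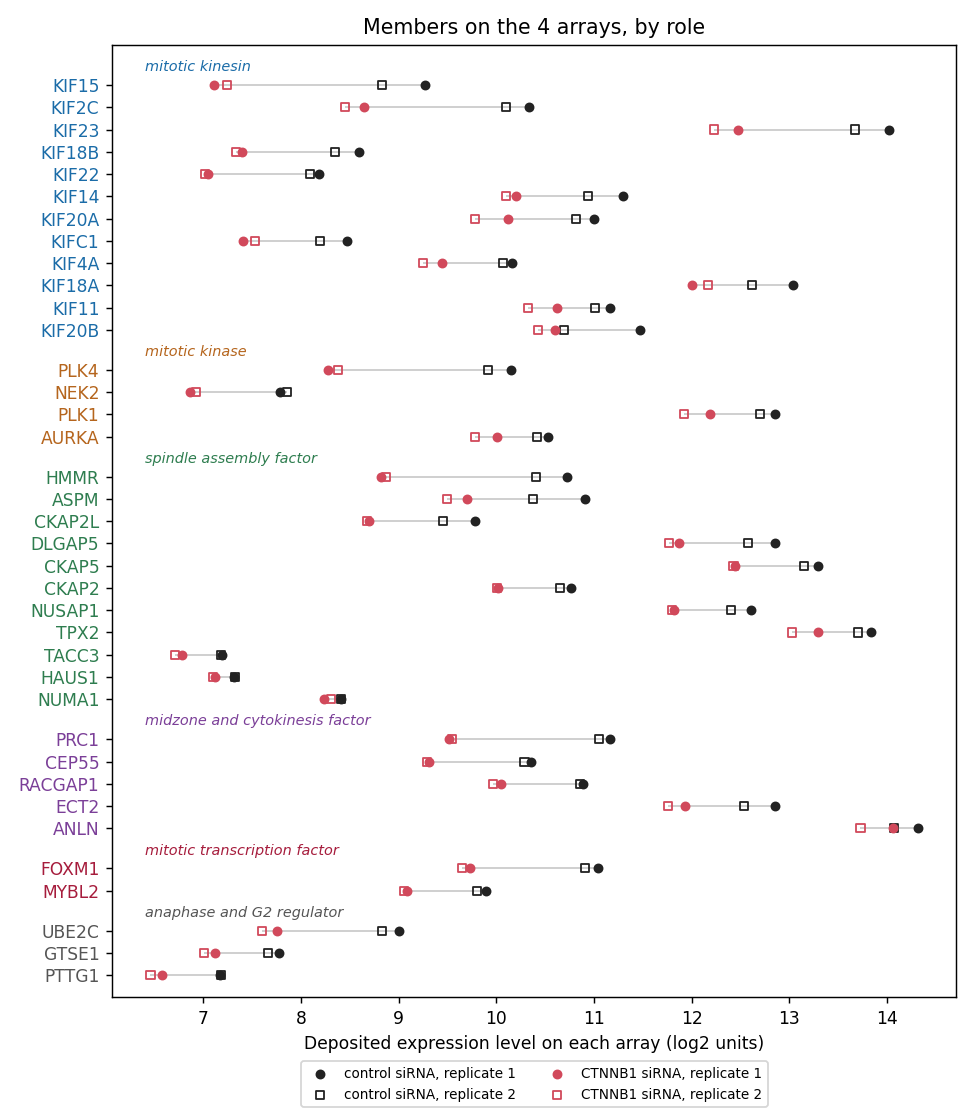
Level of each tested member (log2 units, horizontal axis) on the 2 control siRNA arrays (black) and the 2 CTNNB1 siRNA arrays (red), with circles for replicate 1 and squares for replicate 2. For all 37 members both red symbols lie to the left of both black ones, and for ANLN and KIF20B the groups nearly touch.

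The largest fall was that of KIF15, a motor that can stand in for KIF11 in keeping the spindle bipolar. KIF15 read 9.27 and 8.83 log2 units on the control arrays and 7.11 and 7.24 on the CTNNB1 siRNA arrays. The groups lay more than 1.5 log2 units apart, while the control arrays differed from each other as well. Its log2 fold change was -1.88 (SE 0.16, 95% interval -2.26 to -1.49, adjusted p 0.000976 in limma). KIF11, the Eg5 motor that pushes the spindle poles apart, read 11.17 and 11.01 in controls and 10.62 and 10.33 after CTNNB1 siRNA. Its log2 fold change was -0.62 (SE 0.12, adjusted p 0.0149 in limma), and the 95% intervals of KIF15 and KIF11 (-0.92 to -0.31) did not overlap, although the difference between their changes was not tested. KIFC1, which pulls poles together in the opposite direction, fell by 0.87 (SE 0.12), and its log2 fold change was -0.56 when all its clusters were averaged (adjusted p 0.00683 in limma). Its chromosome 6 cluster stood for it, and of 3 further clusters from alternative haplotypes of that region, 2 differed by -0.88 and -0.87 and 1, at a lower level of 5.71 to 6.38 log2 units, differed by 0.38.

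Motors that act on chromosomes and microtubule tips came next. KIF2C, the MCAK depolymerase that corrects faulty kinetochore attachments, read 10.34 and 10.10 in controls and 8.65 and 8.45 after CTNNB1 siRNA. The log2 fold change of -1.67 (SE 0.12, 95% interval -1.97 to -1.37) was a 3.18-fold fall, well beyond the spread within either group. The paralogs KIF18A and KIF18B, which shorten microtubules at their plus ends, fell by 0.75 (SE 0.15) and 1.11 (SE 0.11). Their intervals, -1.13 to -0.36 and -1.37 to -0.84, overlapped. The chromokinesins KIF22 and KIF4A, which bind chromosome arms, fell by 1.11 (SE 0.08) and 0.77 (SE 0.10). KIF4A has a near-identical intronless copy, KIF4B, and an array may mix the signals of both. The KIF4B cluster read between 5.61 and 5.92 log2 units, below the 9.25 to 10.16 of KIF4A, and did not pass.

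Among kinesins of the spindle midzone, KIF23, the motor of centralspindlin, changed most. It read 14.02 and 13.67 log2 units in controls and 12.48 and 12.23 after CTNNB1 siRNA, a log2 fold change of -1.49 (SE 0.15, 95% interval -1.86 to -1.12). KIF20A, which brings PLK1 to the midzone, and KIF14, a partner of PRC1 and citron kinase, fell by 0.96 (SE 0.14) and 0.97 (SE 0.13). KIF20B, the paralog of KIF20A, did not pass. It read 11.47 and 10.69 on the control arrays and 10.60 and 10.43 on the others, so the control arrays differed from each other by more than control replicate 2 differed from the CTNNB1 siRNA arrays. Its log2 fold change was -0.57 (SE 0.25, adjusted p 0.153 in limma), and -0.18 without control replicate 1. In all, 11 of the 12 kinesins fell, where 16.1% of all tested genes fell.

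**Figure D2:**
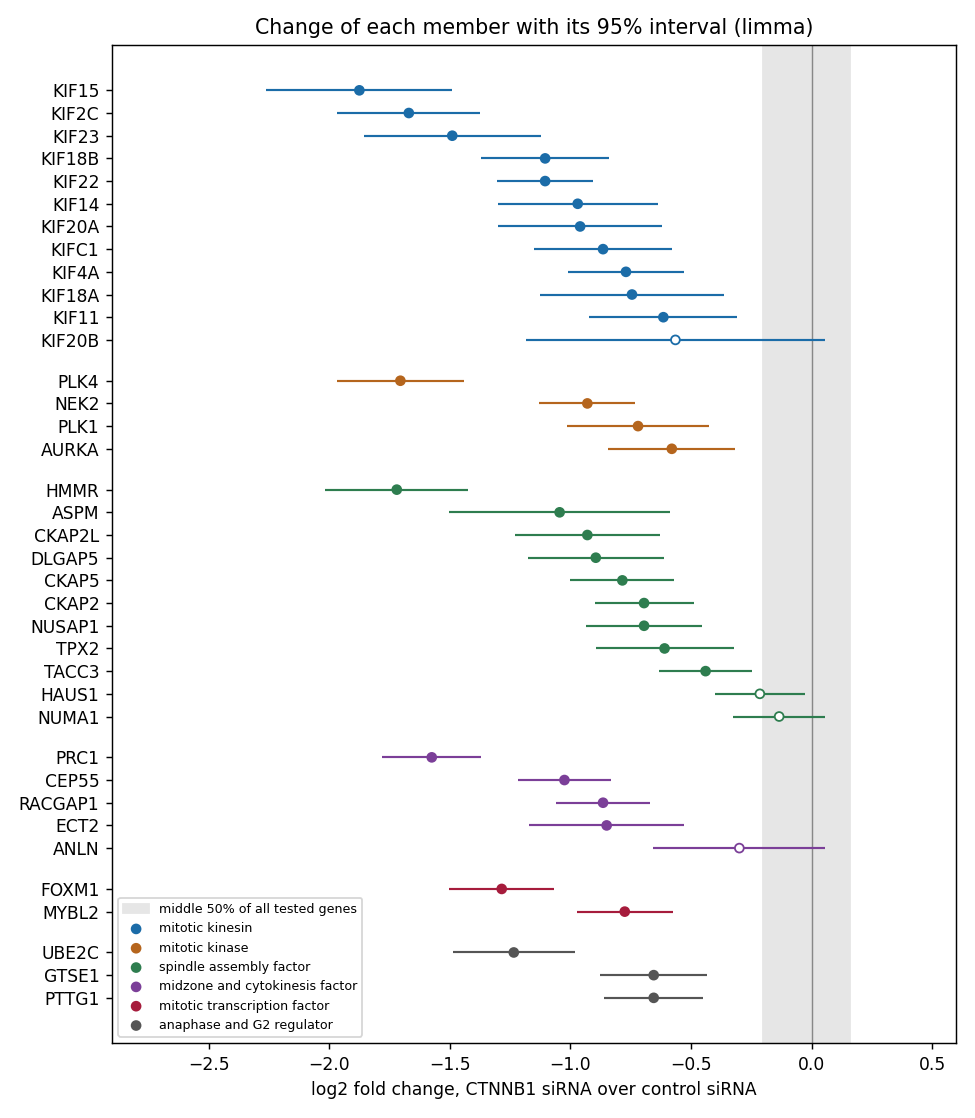
Change of each tested member (log2 fold change, CTNNB1 siRNA over control siRNA) with its 95% interval from limma, coloured by role, with filled symbols for an adjusted p under 0.05. The shaded band is the middle 50% of all tested genes, from -0.20 to 0.16, and every point except that of NUMA1 lies to its left.

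All 4 mitotic kinases fell, beside 16.1% of all tested genes. PLK4, the master regulator of centriole duplication, read 10.15 and 9.92 log2 units in controls and 8.28 and 8.38 after CTNNB1 siRNA. Its log2 fold change of -1.71 (SE 0.11, 95% interval -1.97 to -1.44, adjusted p 0.000489 in limma) had an interval that lay apart from those of the other kinases. NEK2, which separates the centrosomes, read 7.79 and 7.86 in controls and 6.86 and 6.93 after CTNNB1 siRNA and fell by 0.93 (SE 0.08). PLK1, which acts from mitotic entry to cytokinesis, fell by 0.72 (SE 0.12). AURKA, which matures the centrosomes and is activated on the spindle by TPX2, read 10.53 and 10.42 in controls and 10.01 and 9.78 after CTNNB1 siRNA and fell by 0.58 (SE 0.11, adjusted p 0.011 in limma). TPX2 itself fell by 0.61 (SE 0.12).

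Of 11 spindle assembly factors, 9 fell and 2 did not pass, where 16.1% of all tested genes fell. HMMR, a spindle pole protein that helps TPX2 activate AURKA, read 10.72 and 10.41 log2 units in controls and 8.82 and 8.87 after CTNNB1 siRNA. Its log2 fold change of -1.72 (SE 0.12, 95% interval -2.02 to -1.42, adjusted p 0.00067 in limma) was the largest fall of this class. ASPM, which focuses microtubule minus ends at the poles, fell by 1.05 (SE 0.18), with control arrays that differed between 10.91 and 10.38. DLGAP5, which stabilises kinetochore fibres, fell by 0.90 (SE 0.11), and NUSAP1, which bundles microtubules near chromosomes, by 0.70 (SE 0.10). Of the paralogs CKAP2 and CKAP2L, the first fell by 0.70 (SE 0.08) and the second fell by 0.93 (SE 0.12). CKAP5, the chTOG microtubule polymerase, fell by 0.79 (SE 0.09), whereas TACC3, which clathrin and CKAP5 join at kinetochore fibres, fell by 0.44 (SE 0.08), the smallest change among the members that passed.

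NUMA1 and HAUS1 changed little. NUMA1, which anchors dynein at spindle poles and also belongs to the interphase nucleus, read 8.41 on both control arrays and 8.24 and 8.31 after CTNNB1 siRNA. Its log2 fold change was -0.14 (SE 0.08, 95% interval -0.33 to 0.06, adjusted p 0.262 in limma). HAUS1, a subunit of the augmin complex that branches microtubules, read 7.32 and 7.33 in controls and 7.12 and 7.10 after CTNNB1 siRNA. Its groups were tight and apart, but the difference of -0.22 (SE 0.08, 95% interval -0.40 to -0.03) missed the threshold (adjusted p 0.0836 in limma).

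Of 5 measured midzone and cytokinesis factors, 4 fell, beside 16.1% of all tested genes. PRC1, which crosslinks antiparallel microtubules into the midzone, read 11.17 and 11.05 log2 units in controls and 9.52 and 9.55 after CTNNB1 siRNA. The log2 fold change of -1.58 (SE 0.08, 95% interval -1.78 to -1.37) had the lowest adjusted p of any member, 0.000364 in limma. RACGAP1, the partner of KIF23 in centralspindlin, read 10.89 and 10.86 in controls and 10.05 and 9.97 after CTNNB1 siRNA. It fell by 0.87 (SE 0.08, 95% interval -1.06 to -0.67), so the intervals of both centralspindlin subunits lay apart, and the difference between their changes was not tested. ECT2, the exchange factor that centralspindlin recruits to the midzone, fell by 0.85 (SE 0.13), and CEP55, which brings the abscission machinery to the midbody, by 1.03 (SE 0.08). ANLN, the anillin scaffold of the contractile ring, read 14.32 and 14.07 in controls and 14.06 and 13.73 after CTNNB1 siRNA. Its groups were 0.01 log2 units short of touching, and the log2 fold change of -0.30 (SE 0.14, 95% interval -0.66 to 0.06, adjusted p 0.186 in limma) did not pass and was -0.14 without CTNNB1 siRNA replicate 2.

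Both transcription factors of this programme fell. FOXM1 read 11.04 and 10.91 log2 units in controls and 9.73 and 9.65 after CTNNB1 siRNA, a log2 fold change of -1.29 (SE 0.09, 95% interval -1.50 to -1.07, adjusted p 0.000639 in limma). MYBL2 read 9.90 and 9.80 in controls and 9.09 and 9.06 after CTNNB1 siRNA, a log2 fold change of -0.78 (SE 0.08). Among 15 tested partners of the MuvB, DREAM and NF-Y complexes, 10 fell and 5 did not pass. Of all tested genes, 16.1% fell and 14.2% rose. The count of partners that fell was 7 with the replicate number as a block and 8 after quantile normalization or median centring. It was 9 with no level filter or with a trend in eBayes. RBL1, which encodes p107, fell by 1.41 (SE 0.13), NFYA, the NF-Y subunit that reads CCAAT, by 0.96 (SE 0.08), RBL2, which encodes p130, by 0.86 (SE 0.17) and the MuvB subunit LIN52 by 0.70 (SE 0.11). The regulators of anaphase and G2 fell as well. UBE2C, the ubiquitin-conjugating enzyme of the anaphase-promoting complex, read 9.00 and 8.83 in controls and 7.76 and 7.60 after CTNNB1 siRNA and fell by 1.24 (SE 0.10). PTTG1, which encodes the separase inhibitor securin, and GTSE1, a microtubule-associated protein of G2 that also restrains p53, both fell by 0.66 (SE 0.08 and 0.09). PTTG1 has close copies elsewhere in the genome whose signal an array may mix with its own.

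**Figure D3:**
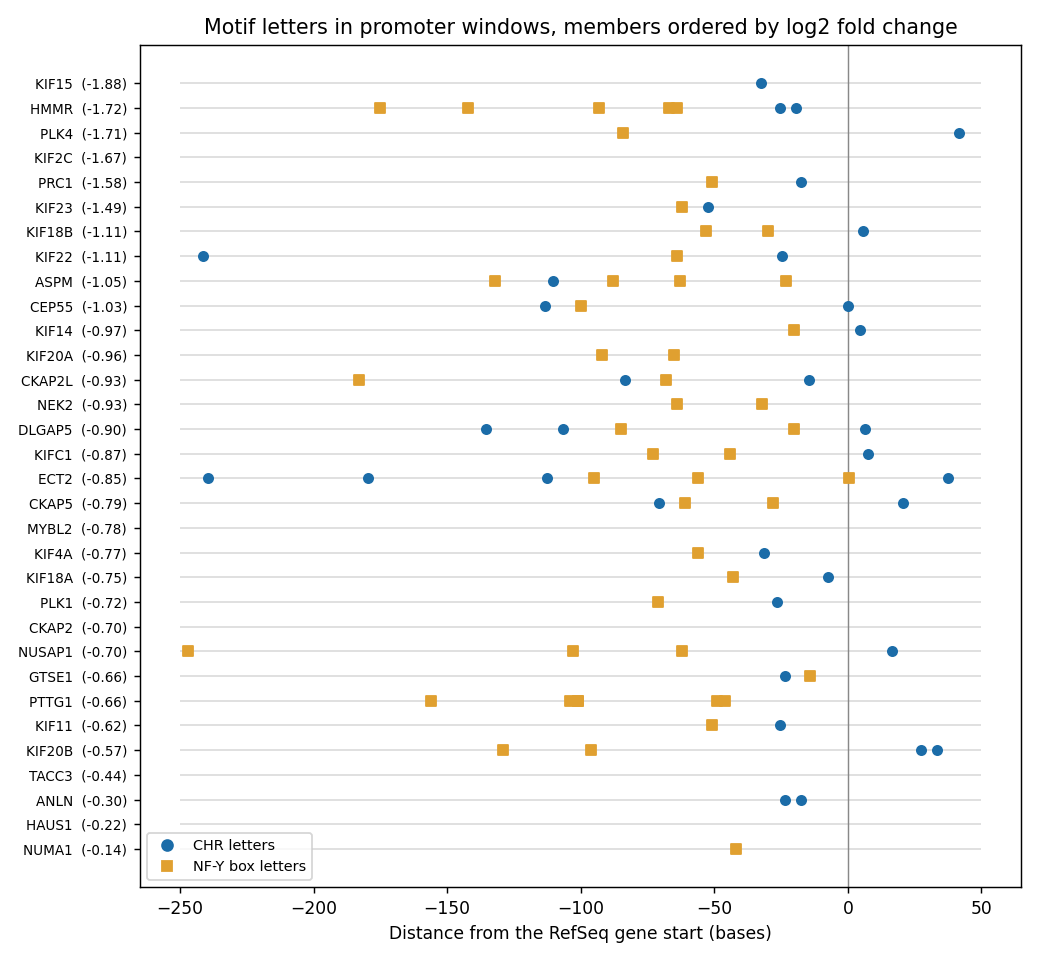
Places of the CHR letters (circles) and of CCAAT, the NF-Y box (squares), relative to the gene start in bases, for the 32 members with both a promoter window and a measured change, ordered by log2 fold change in parentheses. For genes with several windows, each match is drawn at its distance from the start of its own window. Of these members, 23 hold CHR letters, and their changes run from -1.88 to -0.30.

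The changes of members with and without CHR letters covered overlapping ranges, each of which includes members that did not pass. The 23 measured members with the letters in a window had a median log2 fold change of -0.90, between -1.88 and -0.30. The 9 without had a median of -0.70, between -1.67 and -0.14, and among these were KIF2C at the lower end and HAUS1 and NUMA1 at the upper end. Both ranges describe the members and were not tested. Letters of E2F sites (TTTCCCGC, TTTCGCGC, TTTGCCGC or TTTGGCGC, both strands) were in 5.26% of member windows and 4.56% of windows of tested genes. TCF/LEF letters, through which beta-catenin acts (searched on both strands as CTTTGAT, with the forms CTTTGTT and, further, CTTTGTA and also CTTTGAA, the last of which contains TTTGAA), were in 10.5% and 9.76%. Of the 4 TCF/LEF matches in member windows, 1 overlapped CHR letters. Across all other tested genes that fell, 15.4% of windows held CHR letters, compared with 12.4% for genes that rose and 11.3% for genes that did not pass. E2F letters were in 7.9%, 3.36% and 3.96% of the windows of these 3 sets, and TCF/LEF letters in 10.8%, 9.82% and 9.46%. These shares were not tested.

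Kinesins known mainly for work outside mitosis changed in both directions. Of 30 such kinesin and light chain genes tested, 8 fell, 5 rose and 17 passed in neither direction, beside 16.1% of all tested genes that fell and 14.2% that rose. The difference from the mitotic kinesins was not tested, and the list includes KIF2A, which also acts at spindle poles and fell by 0.63 (SE 0.10). Their median log2 fold change was -0.01. KIF21A, which restrains microtubule growth, rose by 1.28 (SE 0.08), from 9.80 and 9.76 to 11.07 and 11.05, and KIF1B, a carrier of mitochondria and vesicles, rose by 0.83 (SE 0.08). KIF27, a motor related to the Hedgehog regulator KIF7, fell by 0.83 (SE 0.10) and KIFAP3, the adaptor of kinesin-2, by 0.65 (SE 0.15). Of 18 dynein and dynactin genes, 2 fell and 3 rose, near the shares of all tested genes, with a median of 0.04. After quantile normalization or with a filter at the 50th percentile 5 of them rose. DCTN4 fell by 0.82 (SE 0.11), while DYNLT1, PAFAH1B1 and NDEL1 rose by 0.55, 0.50 and 0.48. Of 11 tubulin genes, 4 fell and 2 rose. TUBA1B and TUBA1A fell by 0.83 and 0.78, TUBE1 by 0.59 and TUBB by 0.40. Tubulin genes have near-identical copies, so that their signals may be mixed.

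Genes of other mitotic complexes fell in part, beside 16.1% of all tested genes that fell and 14.2% that rose. Of 8 genes of the chromosomal passenger complex and its recruiters, 7 fell, with a median of -0.64. The count was 6 with the replicate block, quantile normalization, median centring, no level filter or a trend in eBayes. AURKB, the kinase of the complex, fell by 0.96 (SE 0.13), INCENP by 0.87 (SE 0.08), CDCA8 by 0.73 (SE 0.13) and SGO2 by 0.68 (SE 0.12). Of 16 centriole and centrosome genes, 11 fell, with a median of -0.65. CEP152, which recruits PLK4 to the centriole, fell by 1.55 (SE 0.18), and STIL, the PLK4 substrate that starts a new centriole, fell by 1.42 (SE 0.13). CEP120 and CCP110 fell by 1.34 (SE 0.09) and 1.19 (SE 0.09). Of 13 augmin and gamma-tubulin ring genes, 6 fell. NEDD1, which targets the ring to the spindle, fell by 1.82 (SE 0.11) from 11.74 and 11.60 to 9.74 and 9.96, and TUBGCP3 fell by 1.31 (SE 0.09). HAUS6 and HAUS8, which join HAUS1 in augmin, fell by 0.90 (SE 0.11) and 0.72 (SE 0.08). Their intervals did not overlap that of HAUS1. HAUS2 fell by 0.36 (SE 0.09) and HAUS5 did not pass (log2 fold change -0.105, SE 0.08), with intervals that overlapped that of HAUS1. Differences between these subunits were not tested.

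The list of the anaphase-promoting complex and its regulators had 7 of 19 genes lower, 2 higher and a median of -0.14. CDC20, its mitotic activator, fell by 1.32 (SE 0.12), PTTG1IP, whose product binds securin, by 0.87 (SE 0.11) and the subunit CDC27 by 0.80 (SE 0.08), whereas the subunit CDC23 rose by 0.80 (SE 0.08). Of 22 further spindle and microtubule factors, 9 fell and 4 rose. GPSM2, which orients the spindle, fell by 1.60 (SE 0.14), BORA, the activator of AURKA, by 1.46 (SE 0.10) and FAM83D by 1.21 (SE 0.08), and NEK7 rose by 1.57 (SE 0.11). The ESCRT genes of abscission had 2 of 16 lower, CHMP1B and VPS4B, and 2 higher, SPAST and CHMP2B, with a median of -0.01. Each of these counts is a description beside the 16.1% of all tested genes that fell and the 14.2% that rose.

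**Figure D4:**
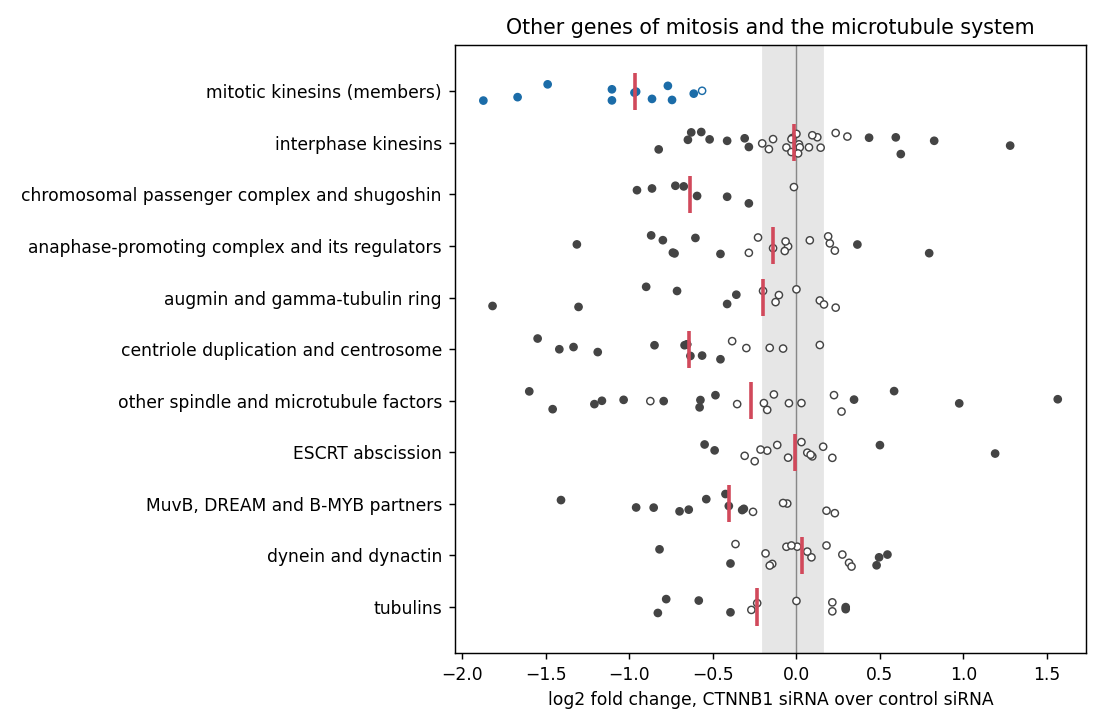
Log2 fold changes (CTNNB1 siRNA over control siRNA) of the mitotic kinesins (blue) and of the genes in the other lists described here (grey), with filled symbols for an adjusted p under 0.05 in limma, a red bar at each median and a shaded band for the middle 50% of all tested genes. The interphase kinesins centre on -0.01, and the mitotic kinesins on -0.97, at median control levels of 6.83 and 10.56 log2 units.

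The spread within the control group bears on these values. Control replicate 1 read higher than control replicate 2 for 33 of the 37 members, by a median of 0.16 log2 units, whereas over all tested genes it read higher for 50.4%, with a median difference of 0.01. CTNNB1 siRNA replicate 1 read higher than replicate 2 for 29 members, by a median of 0.08. Over all tested genes it read higher for 43.8%, with a median difference of -0.02. The part of this in the result was measured by comparing single arrays. Against control replicate 1 the median change of the members was -0.92 and -0.94 on the CTNNB1 siRNA arrays, and against control replicate 2 it was -0.70 and -0.78. That 37 of 37 members were lower in each comparison follows from the separation of the groups given above and adds nothing to it. With any 1 array left out, the median over the members lay between -0.955 and -0.73. These fits leave 1 array in a group. No tested gene passed the adjusted threshold in limma in them, the members and CTNNB1 included.

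Replicates correlated over tested genes with r = 0.997, and the array medians lay between 4.58 and 4.66 log2 units. Of 13 colon epithelial markers, 8 lay above the level filter of 4.29, among them KRT19 and the risen EPCAM, KRT8 and KRT18, while CDX1, CDX2, VIL1, CDH17 and KRT20 lay below it in these cells. KRT19, LGALS4, CLDN3, CLDN4 and CLDN7 were tested and did not pass. The summed level of the colon epithelial markers was 13.97 and 14.09 log2 units in controls and 14.60 on both CTNNB1 siRNA arrays. Their median level was 7.09 in controls and 7.03 after CTNNB1 siRNA. Summed levels of fibroblast markers were between 7.12 and 7.25. Of 7 with a cluster, 3 lay above the filter, COL1A1, DCN and THY1, and none of them passed. PDGFRA and LUM were among those below it. Muscle and endothelial markers summed to between 8.05 and 8.17, and 3 of 7 lay above the filter. These were ACTA1, at 7.32 to 7.37 log2 units, CDH5 and DES, which rose by 0.64. Blood cell markers summed to 8.07 and 8.05 in controls and 9.25 and 9.31 after CTNNB1 siRNA through CD68. CD68 is also a lysosomal protein of other cells. Of 7 with a cluster, CD68 and CD3E were the 2 above the filter, and CD3E did not pass. PTPRC and CD14 were among those below it. The part of these shifts in the members' changes was not tested. The lowest value of any member on any array was 6.46, above the filter.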

How the data were processed

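Biotin-labelled cDNA from the total RNA of 4 samples went onto 1 array each, per the labels' protocols. In the deposited table, log2 levels per transcript cluster were made by the authors with Affymetrix Expression Console and RMA, per the submitters' processing notes. Versions, RMA variant and genome build are not known here. There were 67528 clusters, of which 23781 carried exactly 1 symbol in the platform annotation. Older symbols were replaced with those of RefSeq (GRCh38.p14), and each gene was represented by its cluster of highest mean level, which left 22411 genes. Of these, the 15679 with a mean above the 30th percentile (4.29 log2 units) were tested.

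Differences came from limma 3.58.1 (R 4.3.3), by lmFit and eBayes on 2 groups with no block, with Benjamini-Hochberg adjustment over all tested genes and a threshold of 0.05. The residual degrees of freedom were 2 and 5.66 after moderation. The fit was tested on simulated data. Changes are CTNNB1 siRNA over control siRNA with moderated SE, and intervals are 95%. The labels do not say whether replicates were separate cultures, so p-values measure the spread between these samples, which may be technical. An exact permutation test of 2 against 2 samples cannot go below p = 0.333. The number of arrays limits the precision.

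The members and gene lists were chosen with earlier results of these data known. A further list is not reported here. Named were all members, CTNNB1 and up to 4 called genes per pathway list with the largest change. KIF4B, KIF2A and single markers were named after their values were seen, as were the promoter motifs and windows chosen. Alternatives covered normalization, level filter, trend, cluster choice, replicate block and leaving out each array. Python 3.11.15 and matplotlib 3.10.9 were used for the figures.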

Additional observations from a re-analysis of the deposited data

How the results depend on the processing

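Of the 37 members, 37 kept their direction under every alternative run, and 33 were called lower after quantile normalization, median centring, no level filter, a filter at the 50th percentile, a trend in eBayes and averaging of a gene's clusters, with medians from -0.839 to -0.865. The replicate numbers are not said to mark a shared culture or day, and the deviations of same-numbered arrays correlated with r = 0.271 over tested genes. With the replicate number as a block 32 members were called, and KIF18A was not (adjusted p 0.0909 in limma), while 1969 of all genes were lower and 1929 higher. Of the other lists, the block moved by over 1.5 times the counts of interphase kinesins lower (5), ESCRT genes lower (1), dynein and dynactin genes lower (1) and tubulins higher (0). Median centring gave 5 interphase kinesins lower and 1 tubulin higher, no level filter and the trend each gave 0 tubulins higher, quantile normalization gave 1 augmin and gamma-tubulin ring gene higher, and quantile normalization and the 50th percentile filter each gave 5 dynein and dynactin genes higher. With any 1 array left out, 0 members were called lower in limma (lowest adjusted p 0.0553, with 31 to 34 members at an unadjusted p under 0.05), the median over members lay between -0.955 and -0.73, and 0 of all genes were called lower and 0 higher (2397 to 2772 lower and 2118 to 2457 higher at an unadjusted p under 0.05). The log2 fold change of CTNNB1 lay between -3.63 and -3.48 in these fits, with adjusted p-values from 0.0553 to 0.076 in limma. The lone array of a group is then assumed to vary like the other group, and 1 residual degree of freedom is left. The deposited values carry no measure of signal over background, so what it limits was not assessed.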
